A study of Mus musculus with 19 samples.

Results

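Numbered lincRNAs are long intergenic noncoding RNA genes that carry a placeholder symbol, LINC and a serial number, because no function had named them when they were annotated. The members described here were the gene symbols of that form whose raw counts summed to at least 380 over the 19 tumour libraries, which is 20 counts per library on average. Of 31276 genes in the count table, 1460 carried such a symbol, and 178 of those reached the minimum. Among the symbols of that form, members were chosen by this summed count and by no other value. Just inside the minimum stood LINC01843 with 392 counts, LINC01776 with 389 and LINC00958 with 385, and just outside it LINC03022 with 378, LINC01697 with 367 and LINC02186 with 361.

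Long intergenic noncoding RNAs are transcribed by RNA polymerase II, mostly capped, spliced and polyadenylated, and are usually scarcer and more specific to a cell type than messenger RNAs. Some act in the nucleus on the expression of neighbouring or distant genes, some bind proteins or microRNAs in the cytoplasm, and for most no function is known. Many are turned over by the nuclear exosome soon after they are made. In lung and other epithelial tumours several have been described as raised or lost, and a few respond to growth factor signalling.

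HCC827, a human lung adenocarcinoma line with an activating EGFR mutation, was grown as tumours in NCG mice, an immunodeficient strain. The groups were combination (osimertinib with 6-thio-dG, 5 libraries), osimertinib alone (5 libraries), thio (6-thio-dG alone, 4 libraries) and control (DMSO, 5 libraries). Osimertinib is an inhibitor of mutant EGFR, and 6-thio-dG is a modified nucleoside that is incorporated into telomeric DNA by telomerase. The design compared the combination with each drug alone and with control.

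Whether every library came from its own mouse is not in the labels, so p-values measure only the spread between these libraries. Library totals ran between 17731752 and 35397346 counts. Poly-A RNA was selected and the kit does not mark strand, so reads of a lincRNA and of a gene overlapping it on the opposite strand cannot be told apart, and lincRNAs without a poly-A tail would be missed. Tumour epithelial markers such as EPCAM and KRT8 summed to between 12800 and 23100 CPM (read counts scaled to a common library total) in every library. The 6 lymphocyte markers summed to 0.358 to 1.2 CPM, and MS4A1 and NKG7 were at 0 in all control libraries. The 6 fibroblast markers summed to 239 to 901 CPM. Against control, 4 of them were at an adjusted p under 0.05 in combination, 2 in thio and 0 in osimertinib, by edgeR's test described below, counted in either direction. Their sum was 325 to 846 CPM in combination, 469 to 804 in osimertinib, 239 to 373 in thio and 396 to 901 in control. The 6 skeletal muscle markers summed to 8.59 to 757 CPM, with 1 at that threshold in each drug group. These are bulk measurements, in which the number of cells of a type and the RNA per cell cannot be told apart. The handling of mouse reads was not given, so whether the fibroblast and muscle counts hold reads of the mouse host is not known.

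Not every member was a separate measurement, and not every one was intergenic in this table. The 178 symbols held 175 distinct sets of counts. LINC00511 and LINC00673 had identical counts in every library, as did LINC01599 and LINC01588, and LINC00977 and LINC00976 shared theirs with CCDC26. LINC00593 had the same counts as DRAIC and PCAT29, LINC02310 the same as FRMD6-AS1 and FRMD6-AS2, and LINC02677 the same as LASTR. LINC01590 could not be separated from SMIM8, nor LINC02491 from MMAA, and both partners are protein-coding genes. LINC02802 had the counts of LSP1P4, a pseudogene, and LINC02422 those of LOC105369725. Each such set is described below as a single measurement, and counts of members still count each symbol.

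The summed count had a median of 1434 among members and reached 241292 for LINC02582. Counts are not corrected for transcript length, so they rank how many reads a gene contributed and not its molar level. LINC02582 alone held 26% of all member counts, and the 5 largest members together held 45.1%. LINC02889 had 93449 counts, LINC01278 had 41339 and LINC01748 had 22079. Member counts were thus concentrated in a few transcripts, and most members had low counts. Every one of the 178 passed the filter on low counts and was tested among 16704 genes. A mean of 20 counts per library was reached in each of the 4 groups by 141 members, so the other members reached the minimum through the groups in which they were higher. LINC01287 was the only member with a count of 0 in any library.

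Members took a larger percent of all counts in the combination tumours than in any other group. The share was 0.216%, 0.207%, 0.242%, 0.213% and 0.221% in the combination libraries, 0.162%, 0.175%, 0.159%, 0.183% and 0.18% in the osimertinib libraries, 0.173%, 0.167%, 0.187% and 0.183% in the thio libraries, and 0.144%, 0.165%, 0.134%, 0.154% and 0.145% in the control libraries. All 5 combination libraries lay above all 14 others, thio lay above control without overlap, and osimertinib overlapped both thio and control. The mean was 0.22% ± 0.0132 (SD, n = 5) in combination, 0.172% ± 0.0109 (n = 5) in osimertinib, 0.177% ± 0.00934 (n = 4) in thio and 0.148% ± 0.0116 (n = 5) in control. The thio difference rested on LINC02582, since without it the mean share was 0.161% in combination, 0.136% in osimertinib, 0.115% in thio and 0.117% in control.

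**Figure D1:**
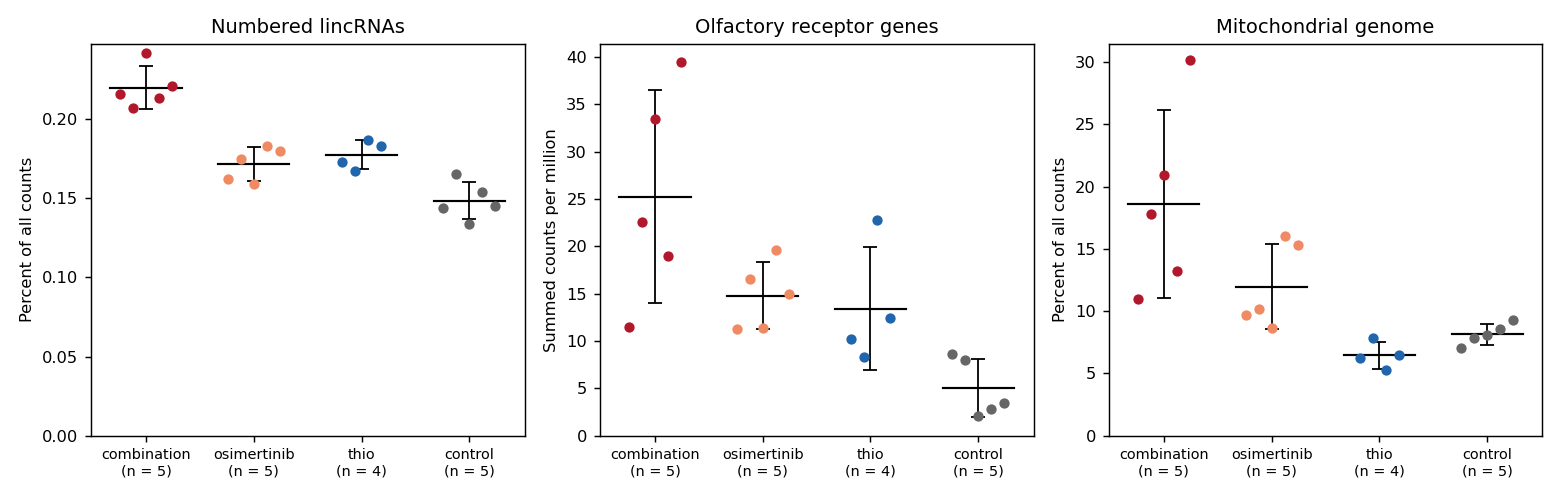
Percent of all counts in the 178 numbered lincRNAs (left), summed CPM of 271 olfactory receptor genes (middle) and percent of counts from the mitochondrial genome (right), with one point per library, a line at the group mean and bars of 1 SD. The 5 combination libraries lie between 0.207% and 0.242% in the left panel, above every library of the other groups, and the other panels are also highest on average in combination.

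A pair of library measures also differed between the groups, and both were highest on average in combination. Olfactory receptor genes, which act mainly in the nasal epithelium, summed to 25.2 ± 11.2 CPM in combination, 14.8 ± 3.57 CPM in osimertinib, 13.4 ± 6.48 CPM in thio and 4.99 ± 3.07 CPM in control. The mitochondrial genome gave 18.6% ± 7.54 of counts in combination, 12% ± 3.42 in osimertinib, 6.45% ± 1.07 in thio and 8.15% ± 0.835 in control. As a share of counts outside the mitochondrial genome, members made up 0.273% in combination, 0.196% in osimertinib, 0.19% in thio and 0.161% in control, so combination was again above the rest with that denominator. The order of the groups was not the same in all 3 measures, since thio had the lowest mitochondrial percent and a member share above control. Without LINC02582 the mean member share was 0.115% in thio and 0.117% in control, and the groups then had the same order as in mitochondrial percent. The part of either measure in this share was not tested, and the calls of single members with each measure as a covariate are given below.

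Combination against control gave the most calls. At an adjusted p under 0.05 (edgeR's quasi-likelihood test, Benjamini-Hochberg adjustment over all 16704 genes), 102 of 178 members were called, 95 higher and 7 lower, which is 57.3% of members. Over all genes tested 48.7% were called, 25.7% higher and 23.1% lower, so the members' share of calls was near the background and the split of directions was not. The median log2 fold change was 0.64 among members and 0.02 among all tested genes. The groups did not overlap for 57 members, and all 57 were among the called, where 26.8% of all tested genes had groups that did not overlap. In means over all 4 groups, 121 members (68%) had their highest level in combination, as did 37.7% of all tested genes. These counts include the 37 members with a mean under 20 counts per library in at least 1 group. Over the 141 others, a choice made after seeing the data that leaves out members low in any group, 75 were called higher and 6 lower, with a median of 0.57, and 95 (67.4%) had their highest level in combination.

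Other noncoding name classes of the same table moved the same way. Of 319 antisense symbols, 144 were higher and 16 lower in combination than in control, with a median of 0.47, and of 142 divergent transcripts, 69 were higher and 5 lower, with a median of 0.54. Level mattered for the contrast with other genes. Among the 89 members with a mean log2 CPM up to 1.36, 46.1% were called higher and 1.12% lower, beside 40.3% higher and 7.15% lower among other tested genes in that range. Among the 89 members above that level, 60.7% were called higher and 6.74% lower, beside 20% higher and 29% lower among other tested genes. The median log2 fold change was 0.73 among members and 0.78 among other genes in the lower range, and 0.54 and -0.1 in the upper range. The gap to other genes was wider in this upper range, which holds LINC01748 and LINC00174, and that contrast was not tested. The cut was the members' own median, so members and other genes were not matched for level within the upper range.

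Fewer members were called in combination against control when a library measure was a covariate, and fewer genes of all kinds. Neither measure overlapped between these groups. The mitochondrial percent was 11 to 30.2 in combination and 7.04 to 9.29 in control. The olfactory receptor level was 11.5 to 39.5 CPM in combination, 11.3 to 19.6 CPM in osimertinib and 2.12 to 8.59 CPM in control. A call that ends with a covariate in such a comparison cannot separate the measure from the treatment. With the mitochondrial percent, 17 members were called, all of them among the 102, and 3.24% of all tested genes. With the olfactory receptor level, 1 member was called, LINC02532, and 0.329% of all tested genes. The members' median log2 fold change was 0.42 with the mitochondrial and 0.41 with the olfactory receptor covariate, beside 0.64 without either, and 58 and 40 members were at an unadjusted p under 0.05, beside 109. Without combination 3, combination 5 and thio 3, the libraries with the highest olfactory receptor level in their groups, 66 members were called, 62 of them higher, 65 of them among the 102.

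**Figure D2:**
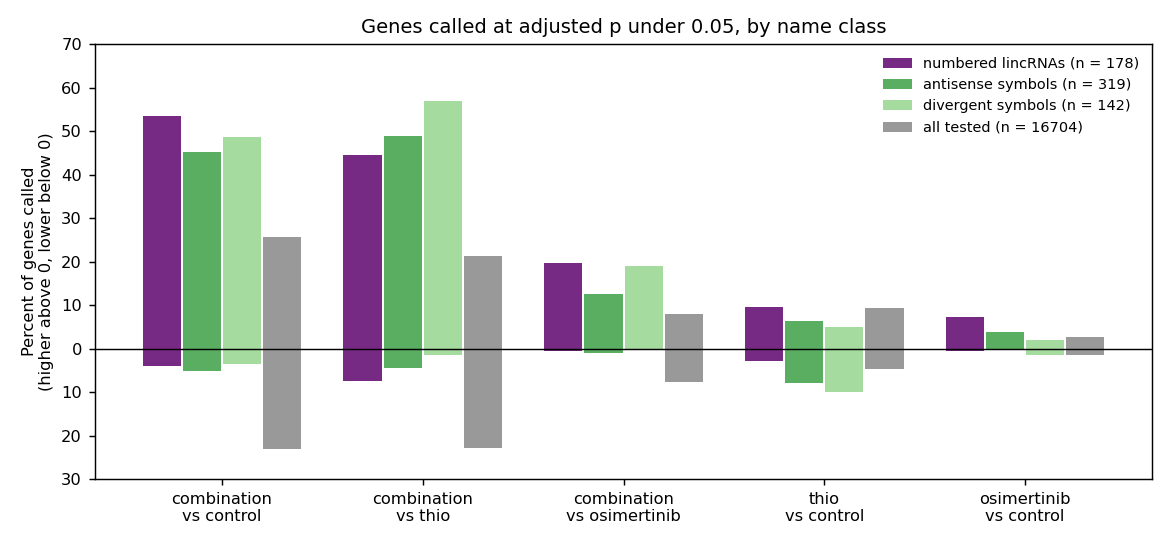
Percent of genes called higher (above 0) and lower (below 0) at an adjusted p under 0.05 in 5 comparisons, for the 178 numbered lincRNAs, 319 antisense symbols, 142 divergent symbols and all 16704 tested genes. In combination against control the noncoding classes are called mostly higher, with 95 members higher and 7 lower, while all tested genes split into 25.7% higher and 23.1% lower.

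LINC02532, for which no role is given here, had the smallest p of any member. It had 18.4, 12.7, 18.3, 14.1 and 21.7 TMM-scaled CPM (CPM after scaling by the trimmed mean of M values) in the combination libraries, 4.75, 7.75, 3.92, 7.07 and 7.22 in the osimertinib libraries, 5.36, 4.86, 1.77 and 3.73 in the thio libraries, and 1.34, 0.505, 0.62, 0.363 and 1.3 in the control libraries. Every combination library was above every other library, every single-drug library was above every control library, and osimertinib and thio overlapped. The log2 fold change against control was 4.36 ± 0.35 (SE) in combination (adjusted p = 6.77e-07), 2.89 ± 0.34 in osimertinib (adjusted p = 0.00046) and 2.26 ± 0.35 in thio (adjusted p = 0.00102). Combination also exceeded osimertinib by 1.47 ± 0.3 (adjusted p = 0.00904) and thio by 2.11 ± 0.33 (adjusted p = 0.000117). All 5 calls held when any 1 library was left out. The excess over osimertinib was not called with the mitochondrial percent as a covariate (1.26, adjusted p = 0.179) or when combination 3, combination 5 and thio 3 were all left out (1.3, adjusted p = 0.0936), and the excess over thio was not called with that covariate (1.7, adjusted p = 0.0567). With the olfactory receptor level as a covariate LINC02532 was still called against control in combination (4.18, adjusted p = 0.00877) and in osimertinib (2.76, adjusted p = 0.0464), and it was not called in thio (2.15, adjusted p = 0.104). The sum of the single-drug changes did not differ detectably from the combination change, with an interaction of -0.78 ± 0.46 (adjusted p = 0.276).

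LINC00593, whose counts were those of DRAIC and PCAT29, a pair of lncRNAs described as tumour suppressors in prostate cancer, rose where osimertinib was given. It had 3.92, 3.62, 3.62, 2.86 and 5.47 CPM in combination, 2.11, 2.15, 0.988, 3.16 and 2.32 CPM in osimertinib, 0.71, 0.468, 1.2 and 0.607 CPM in thio, and 0.579, 0.505, 0.207, 0.363 and 0.501 CPM in control. Both groups with osimertinib lay above control without overlap, while thio overlapped control. LINC00593 had a log2 fold change against control of 3.17 ± 0.35 in combination (adjusted p = 7.85e-06) and 2.31 ± 0.34 in osimertinib (adjusted p = 0.00225), with 0.77 ± 0.37 in thio (adjusted p = 0.16). Both calls held in every omission of 1 library. With the olfactory receptor level as a covariate neither was called (combination 2, adjusted p = 0.0712, and osimertinib 1.45, adjusted p = 0.221).

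LINC01913 was graded across the groups. It had 8.48, 10.3, 11.2, 8.96 and 13.6 CPM in combination, 3.94, 5.7, 4.68, 5.79 and 5.43 CPM in osimertinib, 4.36, 4.61, 3.85 and 2.51 CPM in thio, and 2.09, 2.16, 1.27, 1.98 and 3.74 CPM in control. Combination did not overlap any other group, and thio overlapped both osimertinib and control. Against control the log2 fold change was 2.22 ± 0.24 in combination (adjusted p = 7.85e-06), 1.18 ± 0.24 in osimertinib (adjusted p = 0.00927) and 0.76 ± 0.25 in thio (adjusted p = 0.0463). The combination and osimertinib calls of LINC01913 held in every omission of 1 library, and the thio call held only in the fits without control 5, thio 4, combination 1 or combination 5.

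**Figure D3:**
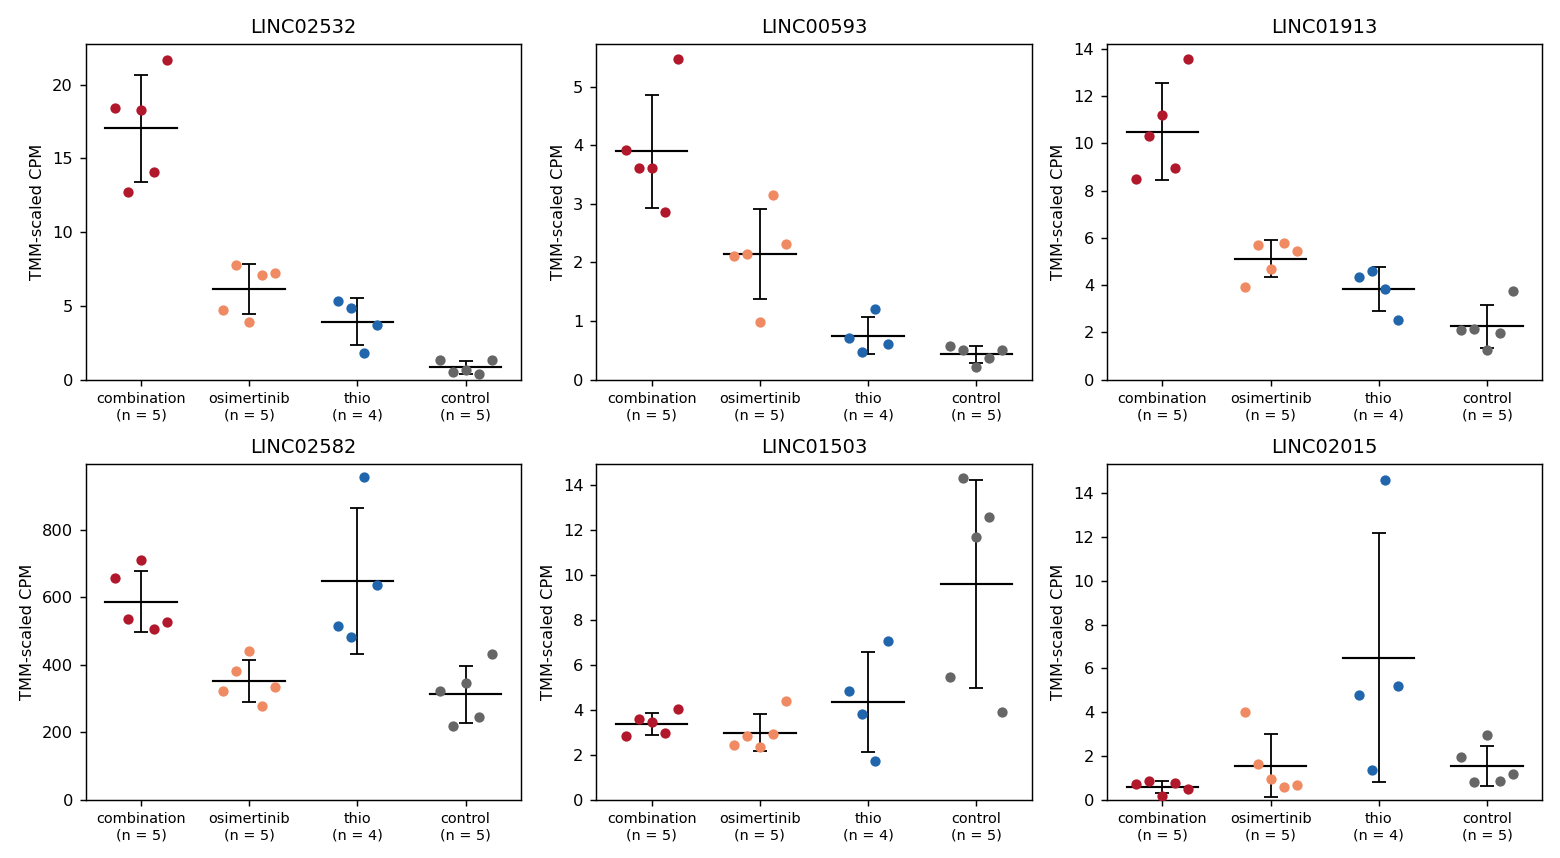
TMM-scaled CPM of 6 members in every library, with one point per library, a line at the group mean and bars of 1 SD. LINC02532 and LINC01913 are highest in all 5 combination libraries, LINC00593 is high in both groups given osimertinib, LINC02582 is high in combination and thio, LINC01503 is low in the drug groups, and LINC02015 is high in 3 of 4 thio libraries.

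The 3 drug groups were compared with the same control libraries. Of the 178 members, 71 (39.9%) were called in no drug group, 85 (47.8%) in 1, 13 (7.3%) in 2 and 9 (5.06%) in all 3, and over all tested genes these shares were 44%, 46.6%, 8.13% and 1.32%. The 9, which are 8 distinct sets of counts, all had the same direction in the 3 groups: LINC02532, LINC01287, LINC00977 with LINC00976, LINC01913, LINC00324, LINC00472 and LINC01876 were higher, and LINC01503 was lower. Most of their calls in the single-drug groups ended in at least 1 omission of a library, as given for each gene.

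LINC01287 had the largest fold change of any member in each drug group against control, on low counts, between 0 and 7 in the control libraries and between 23 and 77 in the combination libraries. LINC01287 is thus among the 37 members with a mean under 20 counts per library in at least 1 group. It reached the minimum through the groups in which it was higher, so its rank is not independent of the choice of members. It had 0.812, 1.5, 2.7, 1.23 and 4.84 CPM in combination, 0.341, 1.48, 1.1, 1.07 and 1.01 CPM in osimertinib, 0.516, 0.252, 2.52 and 0.693 CPM in thio, and 0.223, 0.252, 0, 0 and 0 CPM in control. Combination and osimertinib lay above control without overlap, and thio reached its highest value in thio 3. LINC01287 had a log2 fold change of 4.52 ± 0.83 in combination (adjusted p = 0.000364), 3.39 ± 0.83 in osimertinib (adjusted p = 0.0281) and 3.36 ± 0.86 in thio (adjusted p = 0.0149). The combination call held in every omission, the osimertinib call of LINC01287 ended without control 3, control 4, control 5, osimertinib 2 or osimertinib 4, and the thio call ended without thio 3.

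LINC00977, in the CCDC26 locus that has been linked to myeloid leukaemia, had 5.93, 16.2, 24, 9.59 and 27.9 CPM in combination, 6.3, 9.17, 4.74, 16.3 and 10.1 CPM in osimertinib, 5.65, 5.22, 15.2 and 5.81 CPM in thio, and 4.01, 4.07, 0.482, 0.888 and 0.501 CPM in control. No drug library fell as low as any control library, and the drug groups overlapped each other. The log2 fold change of LINC00977 was 3.08 ± 0.58 in combination (adjusted p = 0.000416), 2.24 ± 0.57 in osimertinib (adjusted p = 0.0306) and 2.01 ± 0.59 in thio (adjusted p = 0.0273). The osimertinib call ended without control 3, control 4, control 5, osimertinib 2, osimertinib 4 or osimertinib 5, and the thio call without control 3, control 4, control 5 or thio 3. With the olfactory receptor level as a covariate, the values of LINC00977 were -0.08 in combination (adjusted p = 0.932), 0.15 in osimertinib and 0.19 in thio, and none was called.

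LINC00472, described as a tumour suppressor in breast cancer, rose in all 3 drug groups. It had 18.3, 19.3, 16.4, 23.8 and 14.5 CPM in combination, 23.7, 18.2, 19.9, 19.5 and 16.1 CPM in osimertinib, 14.3, 10.4, 18.6 and 16.1 CPM in thio, and 11.5, 10.1, 9.67, 7.43 and 10.8 CPM in control. Combination and osimertinib lay above every control library and overlapped each other, while thio 2 lay within the control range. The log2 fold change was 0.9 ± 0.17 in combination (adjusted p = 0.000376), 0.97 ± 0.17 in osimertinib (adjusted p = 0.00392) and 0.58 ± 0.17 in thio (adjusted p = 0.0308). The first and second of these held in every omission, and the thio call of LINC00472 ended without control 3, control 4, thio 1, thio 3 or thio 4.

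LINC00324 had 2.26, 2.16, 3.54, 2.01 and 2.58 CPM in combination, 1.64, 1.59, 1.8, 1.53 and 1.4 CPM in osimertinib, 1.32, 1.12, 1.06 and 1.42 CPM in thio, and 0.802, 0.433, 0.516, 0.444 and 1.13 CPM in control. Combination and osimertinib each lay above control without overlap, and thio 2 and thio 3 lay below the highest control library. LINC00324 rose by 1.9 ± 0.28 in combination (adjusted p = 6.27e-05), 1.25 ± 0.27 in osimertinib (adjusted p = 0.0159) and 0.88 ± 0.29 in thio (adjusted p = 0.0471). Its osimertinib call ended without control 3, at an adjusted p of 0.0501, and its thio call held only without control 1, control 5, combination 3 or combination 5. LINC01876 had 13 to 14.6 CPM in combination, 10 to 12.7 CPM in osimertinib, 10.9 to 12.6 CPM in thio, and 4.58 to 11.3 CPM in control, where control 2 was the highest. It rose by 0.96 ± 0.18 in combination (adjusted p = 0.00042), 0.65 ± 0.18 in osimertinib (adjusted p = 0.0429) and 0.73 ± 0.19 in thio (adjusted p = 0.016). For LINC01876 the combination and thio calls held in every omission, and the osimertinib call held only without control 1, control 2, thio 3, osimertinib 3, combination 1 or combination 5.

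LINC01503, a transcript that TP63 drives in squamous cell carcinoma, was the only member called lower than control in all 3 drug groups. It had 2.83, 3.57, 3.46, 2.96 and 4.02 CPM in combination, 2.45, 2.85, 2.33, 2.91 and 4.38 CPM in osimertinib, 4.84, 3.82, 1.73 and 7.08 CPM in thio, and 5.48, 14.3, 11.7, 12.6 and 3.9 CPM in control. The control libraries were spread widely, with 3 of them at 11.7 CPM or more, and control 5 lay within the range of every drug group. The log2 fold change of LINC01503 was -1.52 ± 0.34 in combination (adjusted p = 0.00152), -1.69 ± 0.34 in osimertinib (adjusted p = 0.00924) and -1.13 ± 0.36 in thio (adjusted p = 0.0404). The first and second of these calls held in every omission, and the thio call ended without control 2, control 3, control 4, thio 1, thio 2 or thio 3. With the olfactory receptor level as a covariate none was called, at -1.39 in combination, -1.6 in osimertinib and -1.06 in thio.

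LINC00460, the other member on a list of squamous and epithelial lincRNAs and raised in many epithelial carcinomas, had 2.23, 3.1, 1.95, 2.54 and 1.57 CPM in combination and 6.02, 3.03, 9.95, 2.3 and 6.11 CPM in control. Combination was lower on average, and its highest libraries overlapped the lowest control libraries. LINC00460 fell by 1.26 ± 0.36 on the log2 scale in combination (adjusted p = 0.00767), while its values were -0.6 ± 0.35 in osimertinib (adjusted p = 0.366) and -0.65 ± 0.38 in thio (adjusted p = 0.256). Both members of that list, of 6 symbols, were thus called lower in combination, against a background of 23.1% of genes called lower.

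**Figure D4:**
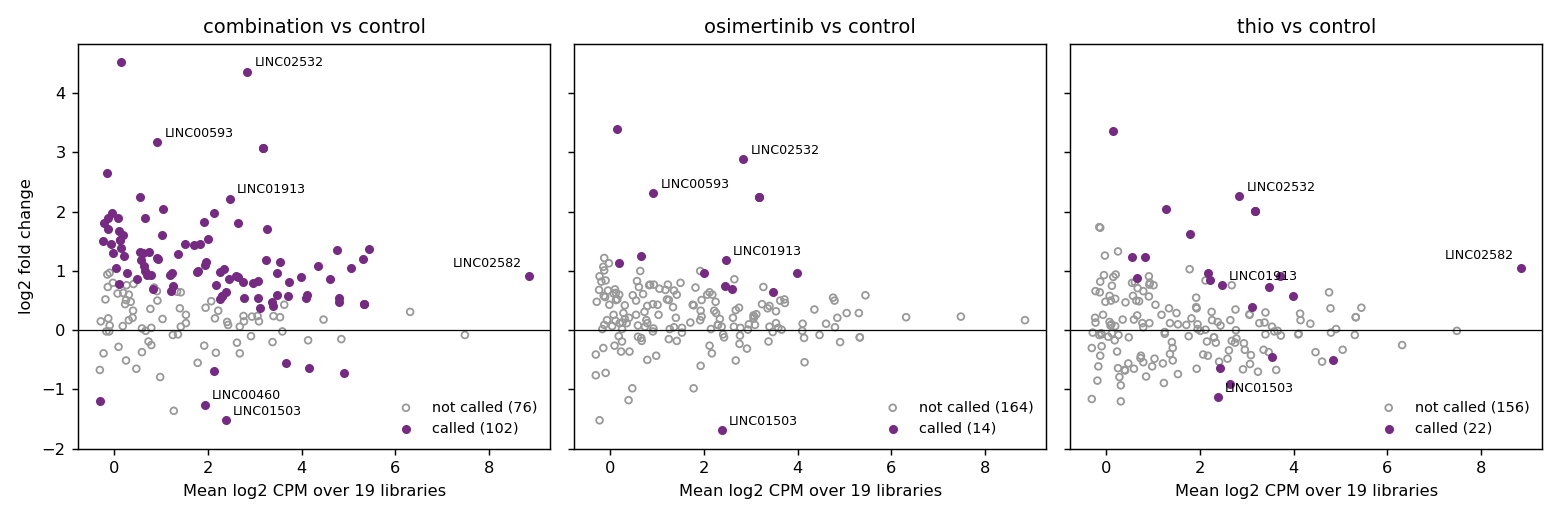
Log2 fold change against mean log2 CPM over 19 libraries for the 178 members in combination, osimertinib and thio against control, with filled points called at an adjusted p under 0.05. The combination panel has 102 called points, nearly all above 0, the osimertinib panel 14 and the thio panel 22, and LINC01503 lies lowest among the labelled members in all 3.

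Osimertinib alone changed few members. Of 178, 14 were called (7.87%), 13 higher and 1 lower, where 4.16% of all tested genes were called, 2.7% higher and 1.46% lower, and the member median was 0.25 beside 0.02 over all tested genes. The groups did not overlap for 16 members, and for 5.84% of all tested genes. Antisense symbols gave 12 higher and 0 lower, with a median of 0.18, and divergent symbols 3 higher and 2 lower, with a median of 0.21. Up to a mean log2 CPM of 1.36, 4.49% of members were called higher (median 0.31), beside 6.1% of other tested genes (median 0.33). Above that level 10.1% of members were called higher (median 0.22), beside 1.41% of other tested genes (median -0.02). Beside the members above, LINC01393 rose by 1.13 ± 0.32 (adjusted p = 0.0473), a call that held only without control 2, thio 3, osimertinib 5, combination 1, combination 4 or combination 5. The count of 14 became 5 without control 3, 6 without control 4 or osimertinib 4, 8 without osimertinib 2 and 9 without osimertinib 1 or osimertinib 5. Only LINC02532 was called with the olfactory receptor level as a covariate, when 0.0599% of all tested genes were.

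6-thio-dG alone changed members about as often as other genes. Of 178, 22 were called (12.4%), 17 higher and 5 lower, beside 13.9% of all tested genes, 9.27% higher and 4.63% lower, and the medians were 0.08 among members and 0.01 among all tested genes. The groups did not overlap for 20 members, and for 12.5% of all tested genes. Unlike the members, antisense symbols gave 20 higher and 25 lower and divergent symbols 7 higher and 14 lower, a contrast between classes that was not tested. The count of 22 became 8 without thio 3, 11 without control 3, 12 without thio 1 and 13 without control 4. With the olfactory receptor level as a covariate edgeR called 0 members and 0 genes, with 27 members at an unadjusted p under 0.05.

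LINC02582, the most abundant member, was higher in both groups given 6-thio-dG, and its osimertinib value was close to 0 on the log2 scale. It had 658, 537, 710, 505 and 526 CPM in combination, 321, 383, 441, 278 and 333 CPM in osimertinib, 516, 482, 958 and 637 CPM in thio, and 323, 220, 347, 244 and 431 CPM in control. Every library given 6-thio-dG was at 482 CPM or more, and every library without it at 441 CPM or less. Against control LINC02582 had a log2 fold change of 0.91 ± 0.2 in combination (adjusted p = 0.00125), 0.17 ± 0.2 in osimertinib (adjusted p = 0.692) and 1.05 ± 0.21 in thio (adjusted p = 0.0035). Its thio call held in every omission of 1 library, with 0.79 without thio 3, the library at 958 CPM. Combination exceeded osimertinib by 0.74 ± 0.2 (adjusted p = 0.0213), a call that ended without osimertinib 1 or combination 3, and differed from thio by -0.14 ± 0.21 (adjusted p = 0.597).

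Several other members were higher under 6-thio-dG alone. LINC01806 rose by 0.85 ± 0.16 (adjusted p = 0.00299), LINC02535 by 0.96 ± 0.19 (adjusted p = 0.00403) and LINC01348 by 1.23 ± 0.26 (adjusted p = 0.00479), and all of these calls held in every omission of 1 library. LINC01348 had 2.26, 1.62, 2.97 and 2.95 CPM in thio and between 0.768 and 1.34 CPM in control. LINC00641 rose by 0.91 ± 0.23 (adjusted p = 0.0149), a call that ended without thio 1, and LINC02728 by 1.23 ± 0.35 (adjusted p = 0.0243), a call that ended without control 3, thio 1 or thio 4. Among the 5 that fell were LINC02614, by 0.91 ± 0.27 (adjusted p = 0.0303), which was lost without control 3, thio 1, thio 2 or thio 3, and LINC00665, by 0.5 ± 0.16 (adjusted p = 0.0429), which held only without thio 2, osimertinib 2 to 5, combination 1, 2, 3 or 5.

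The carcinoma lincRNAs, a list of 19 symbols studied in lung and other tumour cells, had 14 members. In combination against control 9 rose and 1 fell, with a median of 0.53, which is 71.4% called beside 57.3% of all members and 48.7% of all tested genes. LINC00472 was the 1 that rose in osimertinib, and in thio LINC00472 rose and LINC00665 fell. LINC00511 with LINC00673, oncogenic in lung cancer cells, rose by 0.44 ± 0.15 in combination (adjusted p = 0.0188), a call that ended without control 1 or combination 5. SOX9, a coding gene in the same chromosomal region, fell by 0.47 ± 0.15 (adjusted p = 0.0136) in the same comparison. LINC00467, described as a transcript repressed by MYCN in neuroblastoma, rose by 0.59 ± 0.12 (adjusted p = 0.000614), and LINC00662 by 1.05 ± 0.25 (adjusted p = 0.00195). LINC00973, described as raised in cells exposed to anticancer drugs, was not called in combination, at 0.43 ± 0.26 (adjusted p = 0.177). LINC00839, described as a target of MYC, fell by 0.56 ± 0.16 (adjusted p = 0.00749), with 10.5, 10.9, 8.43, 10.3 and 6.22 CPM in combination, each below every control library (10.9 to 15.7 CPM, where the values printed as 10.9 differ before rounding).

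LINC01089, also known as LIMT, is repressed by EGF in mammary cells, and it was called here in combination and not in osimertinib alone. It had 10.3, 8.18, 12.2, 10.7 and 15.9 CPM in combination, 6.58, 8.07, 4.01, 8.88 and 7.84 CPM in osimertinib, 4.84, 6.49, 3.72 and 5.98 CPM in thio, and 4.99, 6.92, 7.54, 7.14 and 6.37 CPM in control. All combination libraries were above all control libraries, and the single-drug groups overlapped control. LINC01089 had a log2 fold change of 0.79 ± 0.21 in combination (adjusted p = 0.00506), 0.1 ± 0.21 in osimertinib (adjusted p = 0.844) and -0.33 ± 0.23 in thio (adjusted p = 0.355). The combination call held in every omission of 1 library, but not when combination 3, combination 5 and thio 3 were all left out (0.55, adjusted p = 0.0663) or with the mitochondrial percent as a covariate (0.3, adjusted p = 0.541).

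LINC00926, a lincRNA described in B cells, rose by 1.38 ± 0.35 in combination (adjusted p = 0.00359), with 1.38, 1.79, 1.91, 1.55 and 1.26 CPM in combination and 0.357, 0.613, 0.826, 0.928 and 0.3 CPM in control. These were tumours of a human lung adenocarcinoma line in immunodeficient mice, and which cells gave these reads was not tested. Of 6 lymphocyte lincRNAs it alone reached the minimum, and LINC00861, LINC01857, LINC02446 and LINC00892 had 38, 38, 10 and 8 counts over all libraries. The summed lymphocyte markers were 0.583 to 1.12 CPM in combination and 0.358 to 0.625 CPM in control. Markers this low can fail the filter on low counts and go untested, so their lack of a call is not read as a result.

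Among the other abundant members, LINC01748 rose by 1.37 ± 0.18 in combination (adjusted p = 2.85e-05), with 51.7, 62.2, 80.6, 60.8 and 94.4 CPM in combination and 25.5, 37.6, 21.3, 24.2 and 26.8 CPM in control. LINC00174 rose by 1.21 ± 0.18 (adjusted p = 8.25e-05). For both genes every combination library was above every control library. LINC02889 was at -0.08 ± 0.28 (adjusted p = 0.834) and LINC01278 at 0.31 ± 0.14 (adjusted p = 0.0752), so the second and the third of the members by summed count were not called. LINC02693 fell by 0.73 ± 0.2 (adjusted p = 0.00641). LINC01843, which had the fewest counts of the 7 members called lower, fell by 1.19 ± 0.47 (adjusted p = 0.0402), a call that ended without control 1, control 3, control 4 or any of combination 2 to combination 5.

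Adding 6-thio-dG to osimertinib moved members mostly upward. In combination against osimertinib 36 were called (20.2%), 35 higher and 1 lower, beside 15.8% of all tested genes, 8.09% higher and 7.66% lower, and the medians were 0.36 among members and 0 among all tested genes. The groups did not overlap for 32 members, and for 8.57% of all tested genes. The shift was not particular to members. Of 319 antisense symbols, 40 were called higher and 3 lower, with a median of 0.35. Of 142 divergent symbols, 27 were called higher and 0 lower, also with a median of 0.35. LINC02728 rose by 1.99 ± 0.33 (adjusted p = 0.00521), LINC02310, counted with FRMD6-AS1 and FRMD6-AS2, by 1.31 ± 0.25 (adjusted p = 0.00772), and LINC00174 by 0.91 ± 0.18 (adjusted p = 0.00793). LINC02728 had 1.77, 3.2, 3.62, 2.08 and 3.96 CPM in combination and 0.993, 0.673, 0.523, 0.675 and 0.788 CPM in osimertinib, so that every combination library was above every osimertinib library. The calls of LINC02728, LINC02310, LINC00174, LINC02532, LINC01913 and LINC01748 held in every omission of 1 library. LINC00839 was the 1 member lower, by 0.57 ± 0.16 (adjusted p = 0.0252), a call that ended without osimertinib 1, osimertinib 2, osimertinib 3, combination 3 or combination 5. The count of 36 became 11 without osimertinib 3 or combination 5, 14 without combination 3, 15 without osimertinib 1 and 19 without osimertinib 2. Without combination 3, combination 5 and thio 3 together edgeR called 0, with 39 members at an unadjusted p under 0.05.

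Adding osimertinib to 6-thio-dG gave 92 calls among members (51.7%), 79 higher and 13 lower, beside 44.2% of all tested genes, 21.2% higher and 22.9% lower. The medians were 0.62 among members and 0.03 among all tested genes, and the groups did not overlap for 69 members and for 33% of all tested genes. Here too the other noncoding classes moved the same way. Antisense symbols gave 156 higher and 14 lower, with a median of 0.65, and divergent symbols 81 higher and 2 lower, with a median of 0.73. LINC02615 rose by 1.89 ± 0.31 (adjusted p = 0.000174) and LINC01910 by 1.85 ± 0.4 (adjusted p = 0.00129). LINC02615 had 12.3, 10.6, 19.4, 14.1 and 23.2 CPM in combination and 4.9, 4.86, 1.42 and 5.84 CPM in thio. Thio 3 was the lowest library for LINC02615, and for LINC01910 at 0.354 CPM. In the other direction LINC02015 fell by 3.42 ± 0.65 (adjusted p = 0.000465), LINC01285 by 0.81 ± 0.19 (adjusted p = 0.00219) and LINC00501 by 0.45 ± 0.11 (adjusted p = 0.00346). All of these calls held in every omission of 1 library, and with the mitochondrial percent as a covariate 2 members were called, LINC01270 and LINC00593. With the olfactory receptor level as a covariate 65 members were called, 62 of them among the 92, and 34.9% of all tested genes.

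**Figure D5:**
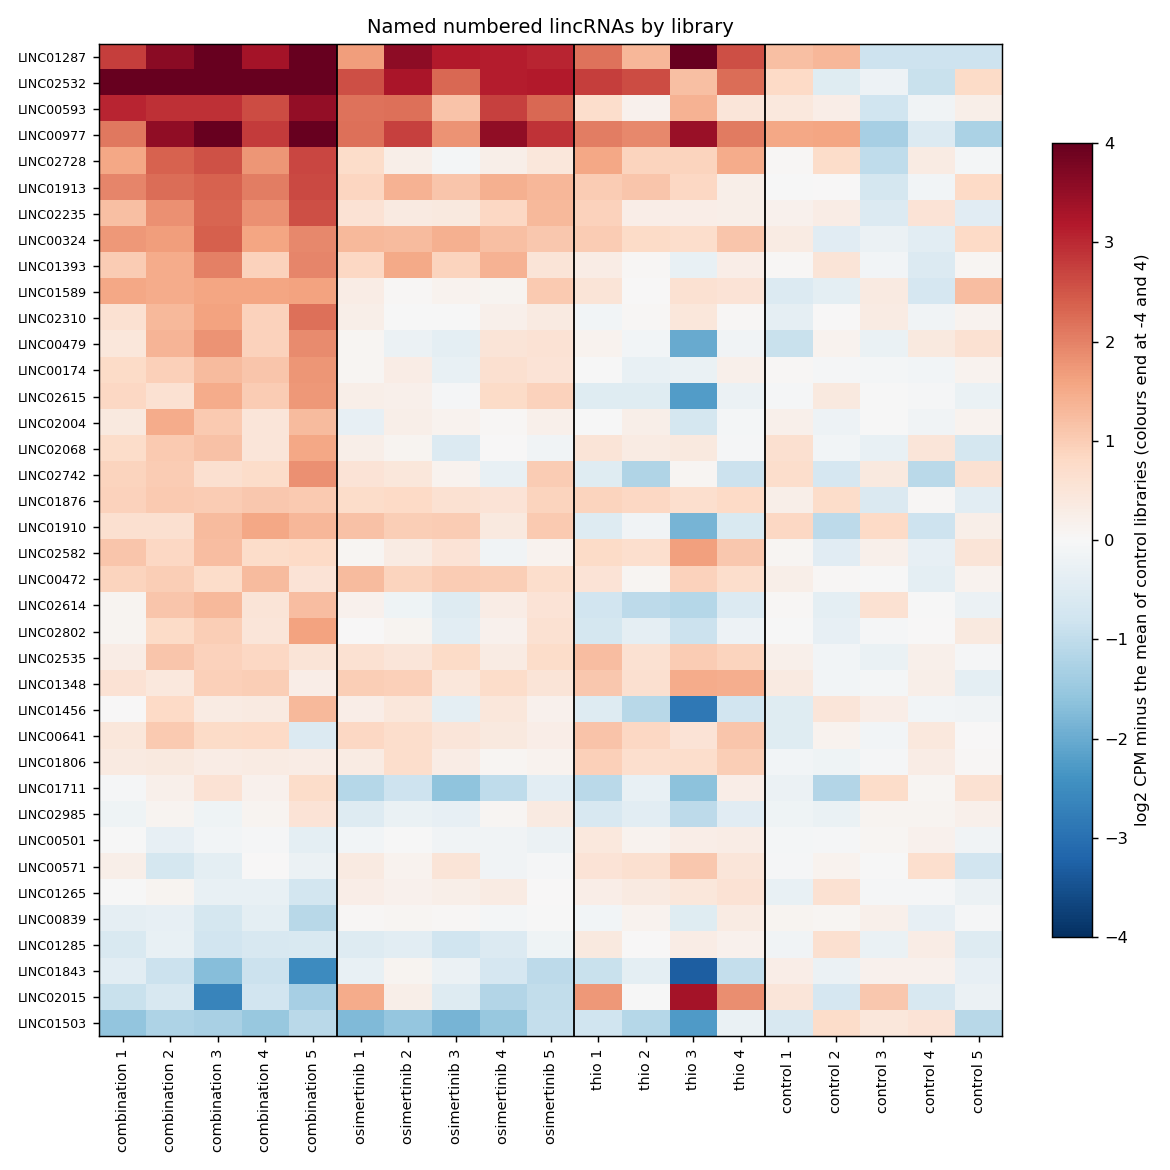
Log2 CPM of 38 named members in each of the 19 libraries, minus the mean of the 5 control libraries, ordered by the combination change and grouped as combination, osimertinib, thio and control, with red higher and blue lower. LINC02532 is strongly red in all combination libraries and red in every single-drug library, and thio 3 holds the extreme values of LINC02015 and LINC01843.

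The interaction, which asks whether the combination differs from the sum of the single-drug changes on the log2 scale, was called for 7 members (3.93%), 4 higher and 3 lower, beside 3.45% of all tested genes, 1.24% higher and 2.21% lower. The values were 1.74 ± 0.37 for LINC02614 (adjusted p = 0.0287), -3.43 ± 0.86 for LINC02015 (adjusted p = 0.0405), 1.28 ± 0.33 for LINC02802 (adjusted p = 0.0432) and 0.99 ± 0.26 for LINC00174 (adjusted p = 0.0456). LINC01806 was at -0.85 ± 0.23 (adjusted p = 0.0458), LINC01348 at -1.3 ± 0.35 (adjusted p = 0.0476) and LINC01711 at 2.07 ± 0.57 (adjusted p = 0.0494). LINC02614 had 5.69, 11.5, 13.3, 7.62 and 12.6 CPM in combination, 5.99, 4.65, 3.66, 6.5 and 7.75 CPM in osimertinib, 3.06, 2.52, 2.39 and 3.58 CPM in thio, and 5.53, 4.04, 8.09, 5.21 and 4.47 CPM in control. Every thio library was below every control library, and the combination mean was the highest. LINC02015 had 0.706, 0.846, 0.159, 0.776 and 0.503 CPM in combination, 4, 1.64, 0.93, 0.568 and 0.657 CPM in osimertinib, 4.77, 1.37, 14.6 and 5.2 CPM in thio, and 1.96, 0.829, 2.96, 0.847 and 1.17 CPM in control. The thio libraries of LINC02015 were spread widely, with thio 3 the highest of all libraries. None of the 7 calls held in every omission: LINC02614 lost its call in 7 of 19 omissions, LINC02015 in 12, LINC00174 and LINC02802 in 13, and LINC01806, LINC01348 and LINC01711 in 14. The count of 7 was 0 without control 3, thio 1, thio 3, osimertinib 1, osimertinib 2, combination 3 or combination 5, and 21 without combination 1. It was 1 without control 4, control 5, osimertinib 3, combination 2 or combination 4, 3 without control 1, 12 without osimertinib 5 and 13 without thio 2.

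By Pearson r of log2 CPM over the 19 libraries, the members most like LINC02532 were LINC00324 at 0.95, LINC01913 at 0.92, LINC01322 at 0.89, LINC00593 at 0.88 and LINC02263 at 0.87. These points share the 4 groups and the libraries, so the values describe a common order over libraries and carry no test. All 5 rose in combination against control, LINC01322 by 1.35 ± 0.24 (adjusted p = 0.000246) and LINC02263 by 1.7 ± 0.25 (adjusted p = 6.97e-05).

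Nuclear RNA surveillance genes, which code for the exosome, its adaptors, the cap-binding complex and Integrator and act on many noncoding transcripts, were called lower more often than higher in combination. Of 37 tested, 5 rose and 12 fell against control, with a median of -0.16 beside 0.02 over all tested genes, of which 48.7% were called. XRN2, a nuclear exonuclease, fell by 0.66 ± 0.16 (adjusted p = 0.00271), MTREX, the helicase that feeds the exosome, by 0.43 ± 0.12 (adjusted p = 0.00626), and RBM7, a subunit of its nuclear adaptor, by 0.82 ± 0.18 (adjusted p = 0.00153). The Integrator subunits INTS1 and INTS5 fell by 0.89 ± 0.2 (adjusted p = 0.00134) and 0.94 ± 0.18 (adjusted p = 0.000578). The 5 that rose were ZCCHC8 by 0.67 ± 0.18 (adjusted p = 0.0046), ZFC3H1 by 0.52 ± 0.15, INTS3 by 0.47 ± 0.14, and EXOSC8 and INTS4 by 0.36 ± 0.11 each. The 20 not called included DIS3 at -0.07 ± 0.12 (adjusted p = 0.651) and EXOSC10 at -0.04 ± 0.09 (adjusted p = 0.74). Against control the list's median was -0.04 in osimertinib and -0.09 in thio, where 1 gene rose and 2 fell. Whether these changes bear on the lincRNA levels was not tested.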

How the data were processed

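RNA of 19 HCC827 xenograft tumours was measured by poly-A RNA sequencing, per the labels' protocols. The deposited table holds raw read counts per gene symbol, which the authors had not normalised. FastQC, Trimmomatic, STAR and the hg38 build are named in the submitters' processing notes; tool versions, the counting program, the gene annotation and the handling of mouse reads were not given in the sources used here. All count columns matched a labelled sample, and 0 columns were left unused. Replicate numbers follow deposition order and pair nothing.

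From the counts, genes were filtered with filterByExpr (minimum count 10, minimum total 15), scaled by TMM and tested with edgeR 4.0.16 in R 4.3.3 (quasi-likelihood, 1 fit over 19 libraries with 4 group means, 5 pairwise contrasts and an interaction, adjusted p under 0.05, prior count 2 for log2 CPM). Standard errors are the fold change divided by the square root of F. Library totals of 17731752 to 35397346 counts set the precision of low members. Figures used Python 3.11.15 and matplotlib 3.10.9. The procedure was tested on simulated data. Alternatives were RLE and upper-quartile scaling, DESeq2 1.42.0, no filter or a stricter filter (above 1 CPM in 4 libraries), the compared groups alone, covariates for mitochondrial percent and olfactory receptor level, and omission of libraries.

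The members and lists were chosen with earlier results of these data known. Named members were the 8 called members with the largest change in each direction per pairwise contrast among those whose groups did not overlap, the 5 in each direction for the interaction, the 15 with the largest summed counts, those called alike in all 3 drug groups, those on the role lists and those at the minimum; a subset is printed. LINC02263 was named for its likeness to LINC02532.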

Additional observations from a re-analysis of the deposited data

Results flagged for a closer look

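In thio, LINC00977 stood at 15.2 CPM in thio 3, where the other 3 libraries had 5.22 to 5.81 CPM. In osimertinib, LINC01503 stood at 4.38 CPM in osimertinib 5, where the other 4 libraries had 2.33 to 2.91 CPM. In both, 1 library's gap to its nearest neighbour was more than Dixon's critical share of the group's range. Chance picks about 1 in 20 groups by this criterion, and 2 of 92 groups examined were picked.

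For 7 members the change under the combination differed from the sum of the single-drug changes in edgeR's interaction test. The log2 values were 1.74 for LINC02614, -3.43 for LINC02015, 1.28 for LINC02802, 0.99 for LINC00174, -0.85 for LINC01806, -1.3 for LINC01348 and 2.07 for LINC01711. With the mitochondrial percent as a covariate, or without combination 3, combination 5 and thio 3 together, edgeR called 0 members in this test, each time with 28 at an unadjusted p under 0.05, and DESeq2 on all libraries called 25. With the olfactory receptor level as a covariate edgeR called 6, of which 4 were among the 7.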

How the results depend on the processing

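No paired analysis was possible because the replicate numbers follow deposition order and tie no library of 1 group to a library of another. Beside the values given with each comparison, the count of members called in osimertinib against control (14) was 23 with DESeq2, 8 with the compared groups alone, 8 with the mitochondrial covariate and 1 with the olfactory receptor covariate. Without control 5 and osimertinib 5 together it was 11, of which 7 were among the 14, and the interaction then gave 8, of which 4 were among the 7 reported. In thio against control (22) it was 6 with the compared groups alone, 0 with the olfactory receptor covariate (29 by DESeq2 on all libraries) and 8 without combination 3, combination 5 and thio 3. In combination against control (102) these alternatives gave 17 with the mitochondrial covariate, 1 with the olfactory receptor covariate and 66 without the 3 libraries. In combination against osimertinib (36) they gave 0, 5 and 0, with 31 members at an unadjusted p under 0.05 for the first and 39 for the last, and 54 calls by DESeq2 on all libraries. In combination against thio (92) the mitochondrial covariate gave 2 and the omission of 3 libraries 38. The olfactory receptor covariate gave 65 there, of which 62 were among the 92. The interaction (7) gave 25 with DESeq2 and 0 with the mitochondrial covariate or without the 3 libraries. With the olfactory receptor covariate the interaction gave 6, of which 4 were among the 7. Leaving out 1 library gave 84 to 103 calls in combination against control, 11 to 51 against osimertinib, 74 to 95 against thio, 5 to 19 in osimertinib, 8 to 25 in thio and 0 to 21 for the interaction. The excess in the percent of counts over control was 0.066 to 0.0757 points in combination, 0.0201 to 0.0278 in osimertinib and 0.0257 to 0.0334 in thio under these omissions. In combination it was 0.0715 points as reported, 0.111 without mitochondrial counts in the total and 0.0449 without LINC02582, and in thio it was -0.00143 without LINC02582, against 0.0292 with it. Direction turned with the mitochondrial covariate for LINC00667 (-0.03 in combination against control, -0.06 against thio), LINC02802 (-0.03 against control) and LINC01089 (-0.09 in osimertinib). It turned with the olfactory receptor covariate for LINC00976 and LINC00977 (-0.08) and LINC01234 (-1.09) in combination, and for LINC00460 (0.24 in osimertinib, 0.01 in thio). LINC02889 in combination turned to 0.05 under upper-quartile scaling and to 0.03 without control 4, and ran between -0.26 without control 3 and 0.25 without control 2. The cause was not tested. Upper-quartile scaling moved the median of all genes to 0.13 in combination against control and 0.21 against thio, with members at 0.75 and 0.8, and the share of interaction calls that were higher to 85.7%, beside 57.1% as reported. Of 124 named pairs of a member and a comparison, 115 were called and 68 of these kept their call in every omission of 1 library. With identical counts counted once, an alternative chosen after seeing the data, 99 of 175 distinct members were called in combination against control.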
